A study of Homo sapiens with 34 samples.

Results

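The genes of the MYC network other than MYCN were followed through 5 histone marks in neuroblastoma cells. The set held 10 of the 19970 protein-coding genes examined, namely MYC, MYCL, MAX, MGA, MNT, MXD1, MXD3, MXD4, MXI1 and MLX. They were chosen by name, and their start sites and bodies were taken from the GENCODE annotation of hg38. Peaks were read within 1 kb of any annotated start site (called the promoter here), in the gene body, and in the gene with 100 kb either side.

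Chromatin immunoprecipitation and sequencing (ChIP-seq) had been carried out on KELLY cells, a human neuroblastoma cell line in which MYCN is amplified. All cells carried a doxycycline-inducible short hairpin RNA (shRNA) against RUNX1T1, a transcriptional co-repressor, and were given either the solvent DMSO or doxycycline for 72 h. For each of H3K4me1, H3K4me2, H3K4me3, H3K27ac and H3K27me3 each treatment had 3 libraries, so that 30 peak lists were read. No cells with doxycycline but without the hairpin were among the groups, so the drug and the knockdown cannot be told apart, and nothing in the sources used here says whether the replicates came from separate cultures. RUNX1T1 expression was not analysed here.

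MYC proteins bind DNA only as dimers with MAX, mostly at the E-box CACGTG, and activate genes of growth and metabolism. The MXD proteins, MNT and MGA compete for MAX at the same sites and repress, the MXD proteins and MNT through SIN3 and histone deacetylases, and MGA through a Polycomb complex (PRC1.6). MLX is a relative of MAX that pairs with the nutrient sensors MLXIP and MLXIPL and with some MXD proteins. H3K4me3 marks promoters, H3K4me1 and H3K4me2 mark enhancers and the flanks of promoters, H3K27ac marks active elements, and H3K27me3 is set by Polycomb at silenced genes.

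The E-box is also found before some of these genes, and the promoters that held it are shown because the network acts through that sequence. RefSeq promoter windows (GRCh38.p14, 250 bases before to 50 after a start site) were matched by symbol for 9 of the 10 genes, in 14 windows. The search returned no window for MYC, whose promoter sequence was therefore not read. CACGTG, which reads the same on both strands, was present in 3 of the 14 windows, against 8.34% of the 22199 windows of protein-coding genes. These were the windows of MNT, MXD4 and MLX, in which the first base of the match lay 193, 238 and 50 bases before the RefSeq start site. The parts outside annotated exons are given 5′ to 3′ on the strand of the gene, with the E-box in capitals, for MNT (chr17:2401105-2401310, minus strand), MXD4 (chr4:2262110-2262359, minus strand) and MLX (chr17:42566850-42567071, plus strand).
MNT: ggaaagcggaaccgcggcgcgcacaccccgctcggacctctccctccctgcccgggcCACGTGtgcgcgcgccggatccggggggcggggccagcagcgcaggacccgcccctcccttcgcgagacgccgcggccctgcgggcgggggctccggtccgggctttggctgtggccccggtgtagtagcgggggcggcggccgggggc
MXD4: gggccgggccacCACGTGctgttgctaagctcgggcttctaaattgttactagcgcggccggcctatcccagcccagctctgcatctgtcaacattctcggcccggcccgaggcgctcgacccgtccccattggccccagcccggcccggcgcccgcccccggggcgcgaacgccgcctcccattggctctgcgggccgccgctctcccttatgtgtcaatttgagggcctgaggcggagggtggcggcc
MLX: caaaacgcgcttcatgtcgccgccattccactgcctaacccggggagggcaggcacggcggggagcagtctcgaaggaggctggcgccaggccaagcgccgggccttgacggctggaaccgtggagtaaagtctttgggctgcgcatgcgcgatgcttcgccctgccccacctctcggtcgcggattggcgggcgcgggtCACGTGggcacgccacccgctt
A match is a description of the sequence and no measure of binding. The windows of these genes were also rich in CpG, the dinucleotide that is dense in CpG islands, with 40 in MNT, 37 in MXD4 and 37 in MLX, beside a median of 21 over all windows. The MYCL window held more still, at 43, which exceeded 93.6% of all windows.

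The libraries met the label of neuroblastoma cells. A promoter H3K27ac peak was present in all 6 lists for the adrenergic neuroblastoma genes HAND2, GATA3, ISL1, PHOX2A, TH and DBH, and in 0 of 6 lists for 5 of 6 markers of other cell types, with EPCAM, an epithelial adhesion gene, as the exception at 6 of 6. The peak caller scales ChIP and input reads to the smaller of the pair, and that smaller total lay between 71.9 and 81.1 M reads for DMSO and between 57.0 and 63.4 M for doxycycline. Depth therefore moved with treatment in every comparison of peak presence, percentile or length, and the effect of depth and that of treatment cannot be told apart. In H3K27me3 the fragment length estimated by the caller was 256 to 280 bp in DMSO replicate 1 and in doxycycline replicates 1 and 2, and 105 to 112 bp in the other three, and values of those lists are given one by one.

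The first question was which marks lay at these promoters. H3K4me1, H3K4me2 and H3K4me3 peaks were present in all 6 lists at 10 of 10 genes, beside 61.4%, 71.8% and 71.9% of all protein-coding genes. H3K27ac was present in all 6 lists at 9 genes, beside 64.2% of all genes, the exception being MYCL, with 0 of 6. H3K27me3 was present in all 6 lists at MYC and MYCL only, in 1 of 3 DMSO and 0 of 3 doxycycline lists at MGA, and in no list at the other 7 genes. Over all genes, H3K27me3 was present in all 6 lists at 20.1% and in none at 64.4%, so that 2 and 7 of 10 lay near the background. Thus 7 of the 10 genes had the 4 other marks in every list and no H3K27me3, a state shared by 38.5% of protein-coding genes.

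**Figure D1:**
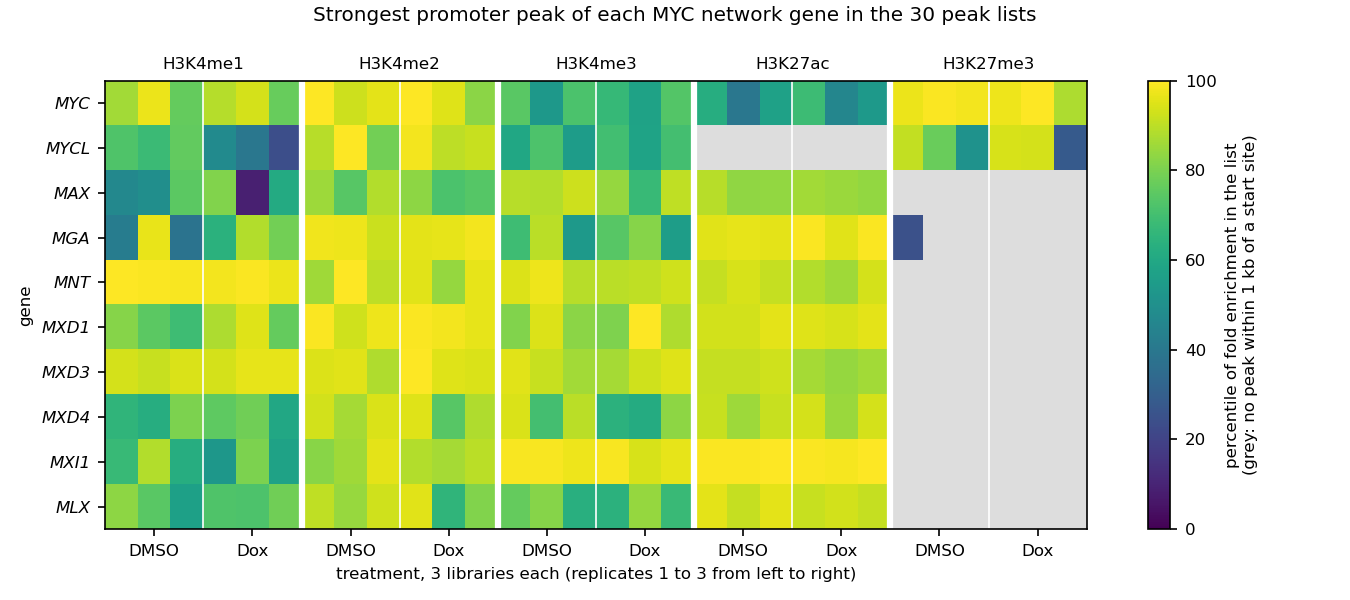
Rows are the 10 genes and columns the 30 peak lists, grouped by mark and then by treatment (3 libraries each). The colour is the percentile of the strongest promoter peak among all peaks of its list by fold enrichment, and grey means that no peak lay within 1 kb of a start site. H3K27me3 is grey except at MYC and MYCL and in 1 list at MGA, and H3K27ac is grey at MYCL.

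Fold enrichment is the ratio of ChIP signal to the local input level, and it depends on the depth of a library. Genes were therefore placed by the percentile of their strongest promoter peak within each list, that is, the share of the list's peaks with the same or a lower fold enrichment. This percentile is not free of the length of a list, which differed too. The H3K4me1 lists held 102186 to 147426 peaks in DMSO and 88001 to 127275 in doxycycline. Width is the summed length of the peaks that touch the promoter.

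MYC, the founding oncogene of the family, lies on chromosome 8 from 127735434 to 127742951. Its promoter carried an active and a Polycomb mark in all lists. The H3K4me3 fold enrichment was 32.8, 22.9 and 21.1 in DMSO replicates 1 to 3 and 31.9, 27.1 and 21.7 in doxycycline. The H3K27me3 fold enrichment was 3.75, 4.51 and 3.56 in DMSO and 3.76, 4.38 and 3.56 in doxycycline. The groups overlapped for both marks. Within their lists the H3K27me3 peaks were among the strongest, at percentiles 96.9, 99.5 and 98.4 in DMSO and 97.6, 99.7 and 87.8 in doxycycline.

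The H3K27me3 peaks at MYC were 14.7, 4.43 and 4.49 kb wide in DMSO and 14.6, 5.66 and 5.35 kb in doxycycline. Replicate 1 stood apart in both treatments, and its fragment length estimate was long in both, but that of doxycycline replicate 2 was long as well. The log2 width differed by 0.20 ± 0.86 (limma, adjusted p = 0.980), beside a median of 0.73 over all genes with the mark. The H3K4me3 width was even, between 4.23 kb (summed over 3 peaks in doxycycline replicate 3) and 5.18 kb. It was greater than at 93.2% of the 14349 genes with this mark in all 6 lists. H3K27ac at the MYC promoter was weak and short. Its fold enrichment was 2.98, 2.37 and 2.57 in DMSO and 3.86, 2.70 and 2.82 in doxycycline, and of the 12827 genes with promoter H3K27ac in all 6 lists only 3.11% had a lower mean percentile. The peaks measured 1122, 1138 and 1130 bp in DMSO and 1097, 639 and 630 bp in doxycycline, so the doxycycline peaks were all shorter. By limma on log2 width the difference, doxycycline minus DMSO, was -0.57 ± 0.24 (SE), with an adjusted p of 0.715 (Benjamini-Hochberg over all genes tested) and a range of 0.217 to 0.956 over the alternatives.

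Most H3K27ac around MYC lay downstream of the gene, in the locus of the long non-coding RNA PVT1. A merged region from 57.4 to 68.4 kb past the canonical start site of MYC held peaks in 6 of 6 lists, which covered 6.86 to 8.01 kb of it in DMSO and 8.65 to 10.8 kb in doxycycline. The share of regions over the genome with lengths this far apart was not counted, so these values are not read as a gain. The value of doxycycline replicate 1 included a separate peak from 66.5 to 67.1 kb. Its main peak, from 57.48 to 65.48 kb, spanned nearly the same stretch as those of DMSO replicates 1 (57.49 to 65.48 kb) and 2 (57.45 to 65.46 kb). A further region from 77.5 to 81.97 kb had peaks in 2 of 3 DMSO and 3 of 3 doxycycline lists, and one from 103.1 to 104.6 kb in 1 of 3 and 3 of 3. Upstream, a region from -69.0 to -66.9 kb had peaks in 3 of 3 DMSO and 2 of 3 doxycycline lists, and one from -90.1 to -89.5 kb in 2 of 3 and 1 of 3. These 5 regions were chosen for mention after their values were seen, out of 15 H3K27ac regions that touched the window. Another region with peaks in 6 of 6 lists lay from 71.7 to 76.3 kb. Its groups overlapped, as doxycycline lists held both the longest and the shortest peaks. One from 105.4 to 107.6 kb had peaks in 2 of 3 lists of each treatment. The whole window of MYC and 100 kb either side was covered by H3K27ac over 18.0, 14.25 and 13.7 kb in DMSO and 20.7, 22.8 and 14.5 kb in doxycycline. These groups overlapped, and the difference on the log2(kb + 1) scale was 0.30 ± 0.21 (limma, adjusted p = 0.7001).

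**Figure D2:**
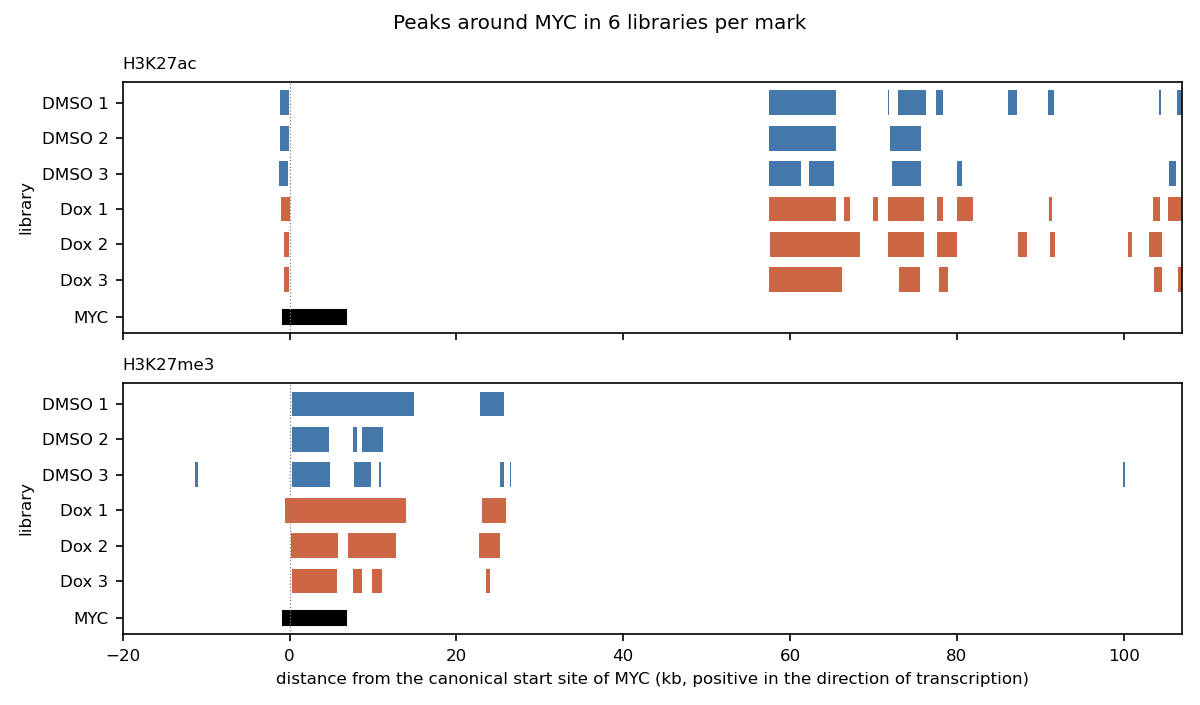
Peaks of H3K27ac (upper panel) and H3K27me3 (lower panel) in the 3 DMSO (blue) and 3 doxycycline (orange) libraries, by distance in kb from the canonical MYC start site. The black bar is MYC. H3K27me3 begins at the promoter and runs furthest in replicate 1 of both treatments, and the long H3K27ac region lies 57.4 to 68.4 kb downstream.

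MYCL, a family member known from small cell lung cancer, lies on chromosome 1 from 39895428 to 39902256. It carried H3K4me3 and H3K27me3 without H3K27ac. The H3K4me3 fold enrichment was 25.1, 36.4 and 16.1 in DMSO and 33.4, 27.5 and 20.8 in doxycycline, and that of H3K27me3 was 3.02, 3.08 and 2.75 against 3.26, 3.08 and 2.97. The groups overlapped in both marks. Both MYC and MYCL thus belonged to the 2048 protein-coding genes (10.3%) with H3K4me3 and H3K27me3 in all 6 lists of each. Of these, 714 also had H3K27ac in all 6 lists, as MYC did, and 965 had it in none, as MYCL did. Peaks from a mixed cell population do not show whether H3K4me3 and H3K27me3 sat on the same chromosome copy. Presence was read over all start sites, of which MYC has 14. Its promoter H3K27ac peaks ended between -0.18 and 0.021 kb from the canonical start site. The H3K27me3 peaks there began between 0.10 and 0.30 kb, except in doxycycline replicate 1, where the peak began at -0.58 kb.

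H3K27me3 extended far around MYCL. Within the gene and 100 kb either side it covered 76.2, 32.4 and 26.7 kb in DMSO and 82.1, 68.0 and 30.7 kb in doxycycline. The 3 lists with a long fragment estimate gave the 3 high values. The difference on the log2(kb + 1) scale was 0.45 ± 0.57 (limma, adjusted p = 0.804), beside a median of 0.36 over all genes.

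H3K4me1 at the MYCL promoter held a lower place in doxycycline. The percentiles were 72.3, 68.2 and 76.0 in DMSO and 47.7, 39.5 and 24.0 in doxycycline, and the groups did not overlap. The inverse-normal score of the rank among genes differed by -1.12 ± 0.40 (limma, adjusted p = 0.401 over 12270 genes), and so it did not pass the test. The fold enrichment itself overlapped, at 3.03, 2.62 and 2.53 against 2.69, 2.51 and 2.32, with a log2 difference of -0.12 ± 0.19, and with a promoter of 2.5 kb the rank difference was -0.49 (adjusted p = 0.294 to 0.894 over the alternatives). H3K27ac within 100 kb of MYCL covered 6.77, 4.88 and 5.90 kb in DMSO and 4.56, 3.04 and 3.46 kb in doxycycline, again without overlap. The difference was -0.55 ± 0.17 (limma, adjusted p = 0.270). It was -0.031 ± 0.18 with 50 kb either side, -0.16 ± 0.38 with peaks of q 0.001 or less, and 0.45 ± 0.27 with q 1e-10 or less. The 2 regions with H3K27ac in all 6 lists were the promoters of the neighbouring genes TRIT1 and MFSD2A, and their covered lengths overlapped between treatments. Another 4 of the 8 regions that touched the window, all between genes, held peaks in 2 or 3 of the DMSO lists and in at most 1 doxycycline list. One of them (chr1:39980440-39981137, -79.2 to -78.5 kb from the canonical MYCL start site) held peaks in 3 of 3 DMSO and 0 of 3 doxycycline lists, with fold enrichments of 2.38 to 2.85. The genome share under the looser rule of the 4 was not counted. H3K27ac lists held 55153 to 71603 peaks in DMSO and 48171 to 60292 in doxycycline.

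MAX, the shared partner of the network, lies on chromosome 14 from 65006174 to 65102695, and its body overlaps FNTB. The promoter differed little between treatments. The H3K27ac fold enrichment was 6.91, 5.48 and 4.18 in DMSO and 8.10, 7.30 and 5.37 in doxycycline, at percentiles of 83.5 to 89.4, and the rank score differed by 0.022 ± 0.20 (limma, adjusted p = 0.966). The H3K4me3 fold enrichment was 41.0, 47.9 and 28.6 in DMSO and 41.1, 33.03 and 27.8 in doxycycline, with a rank score difference of -0.47 ± 0.35 (limma, adjusted p = 0.611). Both marks overlapped between treatments in every measure of the promoter.

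Away from the promoter, H3K27ac around MAX was shorter in doxycycline. In MAX and 100 kb either side it covered 14.5, 14.6 and 13.7 kb in DMSO and 11.0, 8.57 and 9.80 kb in doxycycline, so that every doxycycline library lay below every DMSO library. The difference was -0.51 ± 0.092 on the log2(kb + 1) scale (limma, adjusted p = 0.117 over 19970 genes). This was the smallest adjusted p of the 10 genes in the fits with all 6 libraries and no replicate term, and it missed 0.05. In the gene body alone the covered length was 3.60, 5.197 and 3.68 kb in DMSO and 1.80, 1.73 and 1.86 kb in doxycycline. Between the promoter and the far end of MAX, peaks were found in DMSO lists only, and each such region in 1 or 2 of the 3. A region 28.3 to 30.2 kb into the gene and another from -63.3 to -62.0 kb, upstream of it, each held peaks in 2 of 3 DMSO and 0 of 3 doxycycline lists. The share of regions over the genome with peaks in 2 of 3 against 0 of 3 was not counted. When the lists of a mark were cut to equal length, the difference was -0.20 ± 0.19, with peaks of q 0.001 or less it was -0.041 ± 0.092, and with q 1e-10 or less it was 0.060 ± 0.19 and thus of the opposite sign. The adjusted p ran from 0.119 to 1 over the alternatives.

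**Figure D3:**
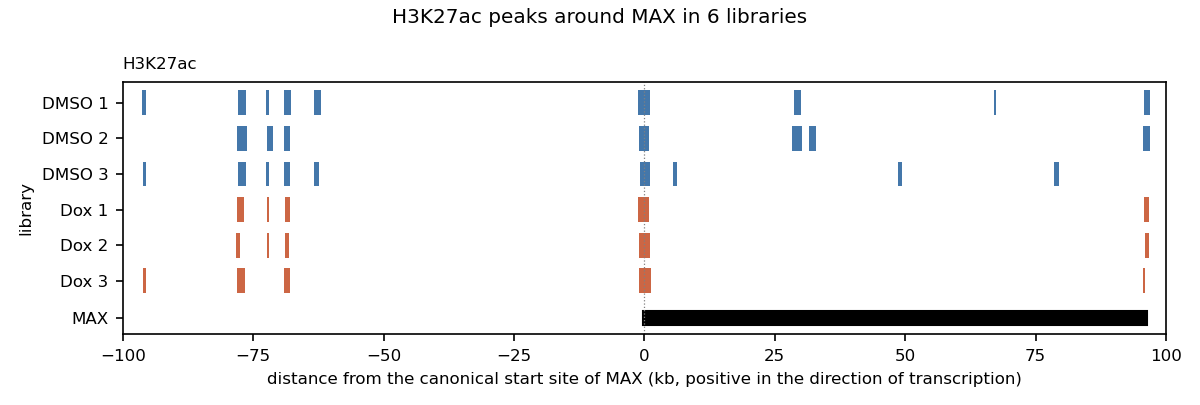
H3K27ac peaks in the 3 DMSO (blue) and 3 doxycycline (orange) libraries by distance in kb from the canonical MAX start site, with MAX as the black bar. The promoter peak is present in all 6 libraries at 1957 to 2277 bp, while the short peaks between it and the far end of the gene are drawn in DMSO libraries only.

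MGA, the largest protein of the network and the scaffold of PRC1.6, lies on chromosome 15 from 41621134 to 41773081. Its H3K27ac promoter peak was stronger in doxycycline, at 18.5, 10.9 and 10.5-fold over input against 9.29, 9.04 and 6.28-fold in DMSO. Fold enrichment was higher in doxycycline over most genes, however, with a median log2 difference of 0.31. The percentiles were 95.7, 96.3 and 95.7 in DMSO and 99.4, 95.5 and 99.5 in doxycycline, and doxycycline replicate 2 was the lowest of the 6. The rank score differed by 0.79 ± 0.29 (limma, adjusted p = 0.192). Without doxycycline replicate 2 it differed by 1.15 ± 0.22 with an adjusted p of 0.0420 (limma), so that 1 library decided the call. The doxycycline lists left in that fit, replicates 1 and 3, had equal input read totals, and so may not be independent in fold enrichment. Over all alternatives the adjusted p ran from 0.0420 to 0.537. The H3K4me3 peaks at the MGA promoter, 2 in each list, had summed widths of 4737, 4978 and 4480 bp in DMSO and 4982, 5286 and 5108 bp in doxycycline. The log2 difference was 0.12 ± 0.067 without overlap (limma, adjusted p = 0.989).

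The MXD family and MNT repress as dimers with MAX. By mean percentile they ranged from MXI1, above 98.6% of marked genes in H3K27ac, to MXD3, above 49.3%. MNT (chromosome 17, 2384073 to 2401104) had H3K27ac over its whole length. The promoter peak was 19.9, 20.8 and 14.1 kb wide in DMSO and 21.8, 19.7 and 13.9 kb in doxycycline, wider than in 96.8% of the 12827 genes with the mark, and the groups overlapped. It covered 100% of the gene in 4 of the 6 lists and 86.5% and 88.8% in the replicate 3 libraries. MNT also led in H3K4me1, at percentiles of 97.0 to 99.9, which was the only case in this mark where a gene's range of 6 lists lay apart from that of the next gene, MXD3 (91.8 to 96.5).

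MXI1 (chromosome 10, 110207605 to 110287365) had the highest mean percentile of the set in H3K27ac and H3K4me3, with ranges that overlapped those of the next gene. It has 37 annotated start sites, beside 3 to 15 for the others. Since the strongest peak near any start site was taken, more sites leave more room for a high value, and the part this played was not tested. Its H3K27ac percentiles were 98.8 to 99.7 and its H3K4me3 percentiles 93.8 to 99.1, with higher mean percentiles than 98.6% and 99.8% of the genes with the respective mark. The treatments overlapped at the promoter, with H3K27ac fold enrichments of 13.8, 12.2 and 8.79 in DMSO and 19.2, 13.7 and 10.9 in doxycycline.

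H3K4me1 at MXI1 covered less length in doxycycline. The promoter width was 3387, 2491 and 2989 bp in DMSO, summed over 3, 3 and 4 peaks. In doxycycline it was 1929, 1457 and 717 bp, over 3, 2 and 2 peaks. The summed peaks lay near separate start sites, as far as 20.4 kb past the canonical one, so they are not 1 peak that shortened. The log2 difference was -1.22 ± 0.40 (limma, adjusted p = 0.934) and ranged from -1.52 to -0.64 over the alternatives. In the gene body H3K4me1 covered 12.1, 9.56 and 10.7 kb in DMSO and 7.34, 4.93 and 5.79 kb in doxycycline. In the window of 100 kb either side it covered 38.9, 27.2 and 31.1 kb against 26.9, 20.7 and 22.3 kb, again without overlap. That difference was -0.45 ± 0.18 (limma, adjusted p = 0.888, and 0.0877 to 1 over the alternatives), beside a median of -0.13 over all genes, and it ranged from -0.60 to -0.23, the latter with values centred on the median.

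Regions with peaks in 3 of 3 libraries of one treatment and 0 of 3 of the other were then sought within 100 kb of the 10 genes. Of 687 merged regions of the 5 marks, 6 had peaks in DMSO only and 0 in doxycycline only, beside 1.11% and 0.372% of the 546007 regions of the genome, where DMSO also held more such regions in each mark but H3K27me3 (48 against 522). Of the 6, 3 lay around MXI1. One was an H3K27ac region from -26.8 to -25.1 kb, upstream of its canonical start site (chr10:110180800-110182534), outside protein-coding genes, with peaks of 1.24, 1.48 and 0.842 kb in DMSO, fold enrichments of 2.74 to 3.51 and none in doxycycline. H3K4me1 was present at this place in all 6 lists, over 2.03, 1.92 and 1.02 kb in DMSO and 0.729, 0.625 and 0.774 kb in doxycycline. The other 2 were H3K4me1 regions, from -44.9 to -43.4 kb and from 41.9 to 42.5 kb, the second in an intron of MXI1.

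The upstream H3K27ac region is printed because it had the highest fold enrichment of the 6. Its central 200 bases (chr10:110181568-110181767, hg38, plus strand) held no CACGTG, which was found in 2.97% of the same-length centres of all 100382 merged H3K27ac regions, and so no base is in capitals.
MXI1 upstream region: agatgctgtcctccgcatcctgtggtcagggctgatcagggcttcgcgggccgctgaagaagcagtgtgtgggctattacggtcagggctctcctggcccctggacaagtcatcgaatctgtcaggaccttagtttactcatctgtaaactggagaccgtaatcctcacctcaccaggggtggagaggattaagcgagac
The remaining 3 regions were the H3K27ac region upstream of MYCL and 2 H3K4me1 regions in introns of MAPKBP1, 133.3 to 138.4 kb past the MGA start site, with fold enrichments of 1.90 to 2.36.

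**Figure D4:**
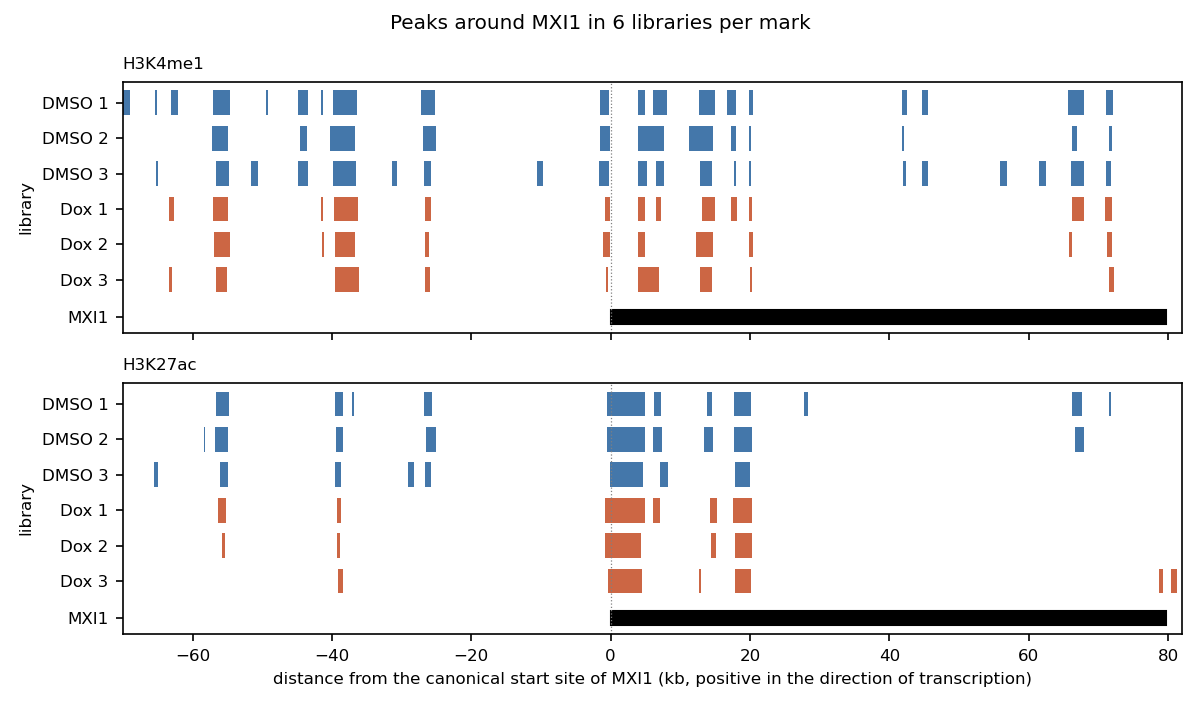
Peaks of H3K4me1 (upper panel) and H3K27ac (lower panel) in the 3 DMSO (blue) and 3 doxycycline (orange) libraries by distance in kb from the canonical MXI1 start site, with MXI1 as the black bar. The H3K27ac peaks between -26.8 and -25.1 kb are drawn in the 3 DMSO libraries only, at a place where H3K4me1 is present in all 6.

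MXD3 (chromosome 5, 177301461 to 177312757), a repressor linked to proliferating cells, had a greater summed H3K27ac width and a lower-placed strongest peak in doxycycline. The promoter width was 5361, 5362 and 3559 bp in DMSO, summed over 2, 2 and 1 peaks. In doxycycline it was 7795, 7494 and 6244 bp, summed over 1, 1 and 2 peaks, so these values do not show that a single peak broadened. The log2 difference was 0.61 ± 0.21 (limma, adjusted p = 0.614). The percentiles were 91.3, 91.2 and 92.9 in DMSO and 86.7, 84.1 and 86.2 in doxycycline, with a rank score difference of -0.50 ± 0.20 (limma, adjusted p = 0.244). Neither measure overlapped between groups, and neither passed the test. The fold enrichment itself overlapped, at 7.51, 7.15 and 5.62 against 8.39, 7.09 and 5.70, and its log2 difference had the opposite sign to the rank, at 0.056 ± 0.30. The summed H3K4me1 width at the MXD3 promoter, over 2 peaks in each list, did not overlap between groups either. It was 3656, 3043 and 2900 bp in DMSO and 3925, 4118 and 4015 bp in doxycycline. This difference passed no test, with an adjusted p of 0.628 to 0.991 over the alternatives (limma). In this mark and measure 4.74% of all genes tested were higher without overlap.

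MXD1 (chromosome 2, 69897688 to 69942945), known to rise when cells differentiate, carried promoter H3K27ac in all lists. Its H3K27ac percentiles were 93.2, 93.3 and 95.9 in DMSO and 95.3, 94.0 and 95.8 in doxycycline, which overlapped. Its summed promoter H3K4me1 widths were 2602, 1631 and 675 bp in DMSO (2, 2 and 1 peaks) and 1037, 1273 and 454 bp in doxycycline (1 peak each). These overlapped too, with a log2 difference of -0.75 ± 0.61 (limma, adjusted p = 0.934). Within 100 kb, H3K27ac covered 9.03, 8.38 and 7.54 kb in DMSO and 6.82, 6.13 and 6.61 kb in doxycycline, without overlap. The difference was -0.31 ± 0.075 (limma, adjusted p = 0.196). MXD4 (chromosome 4, 2247432 to 2262109) had no mark whose rank, width or covered length within 100 kb was without overlap. Its H3K27ac peaks measured 4168, 2421 and 2335 bp in DMSO and 4696, 2856 and 2421 bp in doxycycline. MLX (chromosome 17, 42567072 to 42573239) had none either, with H3K27ac fold enrichments of 9.39, 7.15 and 6.31 in DMSO and 10.4, 9.79 and 6.58 in doxycycline.

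Over all genes of the network together, no test called a difference. By presence, 0 of the 50 pairs of a gene and a mark had a promoter peak in 3 of 3 libraries of one treatment and 0 of 3 of the other, beside 0.199% of the 99850 pairs of all protein-coding genes. With 3 libraries against 3 the smallest p of an exact two-sided permutation test is 0.1, so no single presence could pass 0.05. By limma on rank scores, 0 of 41 pairs with the mark in all 6 lists passed an adjusted p of 0.05, beside 0.189% of the 57795 pairs tested. By limma on width 0 of 41 passed, beside 0.0277%, and on covered length within 100 kb 0 of 50, beside 0.0991%. At an unadjusted p under 0.05 the counts were 3 of 41 for rank, 2 of 41 for width and 4 of 50 for covered length, and over all pairs the shares were 12.1%, 3.92% and 4.25%. With the replicate number as a term, the calls over all genes fell from 109 to 48 for rank, from 16 to 0 for width and from 99 to 0 for covered length, and the count of network genes was 0 in each. At an unadjusted p under 0.05 that fit gave 3 of 41, 3 of 41 and 8 of 50 pairs of the network. The share over all pairs in that fit was not counted, and the shares above belong to the fit without the replicate term. These 3 counts therefore have no background and are not read as a result.

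The pairs whose groups did not overlap were counted beside the same share of all pairs. For rank, doxycycline was higher in 0 and lower in 2 of 41 pairs, against 8.83% and 8.61% of all pairs. For width it was higher in 3 and lower in 2 of 41, against 3.57% and 4.73%. For covered length within 100 kb it was higher in 0 and lower in 4 of 50, against 1.13% and 4.5%. Of those 4, 3 were in H3K27ac (MYCL, MAX and MXD1 of 10 genes), where 12.8% of all genes were lower without overlap. In the gene body, H3K27ac was lower without overlap at MAX and higher at MXD3, 1 each of 9 genes with a peak, against 10.3% and 5.66% of genes. H3K4me1 was lower at MXI1 and higher at MXD3, 1 each of 10, against 6.86% and 3.87%. The median difference of H3K27ac covered length was -0.17 over the 10 genes and -0.022 over all genes, and the 10 were not tested as a set. It was -0.30 over MYCN, MLXIP and MLXIPL, -0.11 over the 6 markers of other cell types and 0.0042 over 20 coactivators and turnover regulators of MYC. These values are all uncentred. Centring lists on their medians moved the H3K27ac difference of every gene by the same amount. At MAX it went from -0.51 to -0.35, and the value over all genes became 0.14. That value is not to be set beside the uncentred -0.17 of the 10 genes. Without centring, the medians over all genes were further from 0 than the -0.022 of H3K27ac for H3K4me1 (-0.13), H3K4me2 (0.10) and H3K27me3 (0.36).

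**Figure D5:**
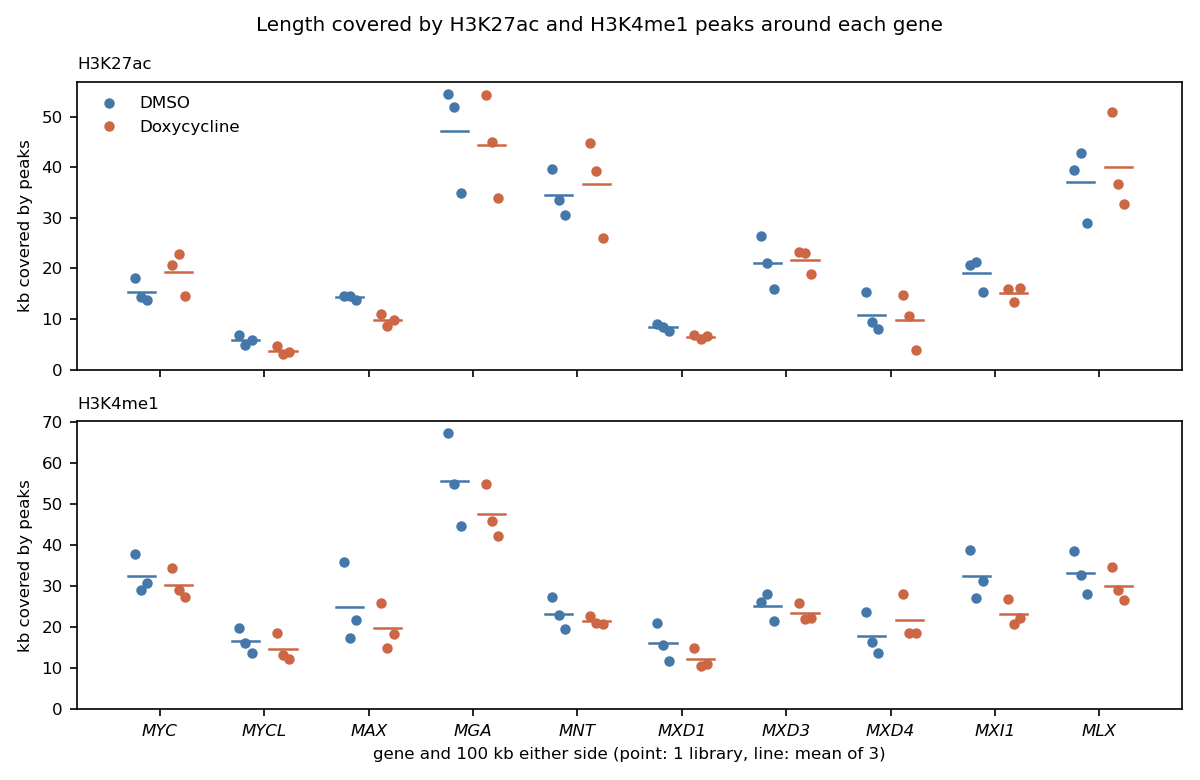
Length in kb covered by H3K27ac (upper panel) and H3K4me1 (lower panel) peaks in each gene and 100 kb either side. Each point is 1 library and each line the mean of 3, with DMSO in blue and doxycycline in orange. The points of the 2 treatments do not overlap for MYCL, MAX and MXD1 in H3K27ac and for MXI1 in H3K4me1.

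The order of the genes by mean percentile over the 6 lists was weakly resolved. In H3K27ac it ran from MXI1 (99.4) through MGA (97.0), MXD1 (94.6), MLX (93.1), MNT (90.7), MXD4 (90.1), MXD3 (88.7) and MAX (85.2) to MYC (54.6). Of the 8 neighbouring pairs only MAX and MYC had ranges that did not overlap, at 83.5 to 89.4 and 39.5 to 68.6. In H3K4me3 MXI1 (97.4), MNT (92.3) and MXD3 (91.3) stood first and MYC (66.2) and MYCL (64.1) last, and 0 of 9 neighbouring pairs had ranges apart. In H3K4me2 MXD1 (97.3) was first and MAX (79.3) last, also with 0 of 9 pairs apart. The median percentile of the network genes was 90.7 for H3K27ac, 91.5 for H3K4me2 and 81.2 for H3K4me3, beside 88.9, 84.9 and 76.0 over all genes with the mark. It was 71.6 for H3K4me1 and 84.5 for H3K27me3, beside 73.5 and 89.8.

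For each gene the other protein-coding gene with the most similar promoter was found, as the smallest root mean square difference of percentiles over the 30 lists (0 where there was no peak). The closest matches were MIDEAS to MXD3 and NOL4L to MNT, at 3.34 and 3.42 percentile points, followed by KIF1A to MXD1 at 4.24. DCBLD2 to MLX (6.03), GMNN to MXD4 (6.44), ZBTB34 to MXI1 (6.52) and BLM to MAX (6.58) came next. TTC30B to MGA (9.54), PITPNM3 to MYC (8.97) and CGNL1 to MYCL (10.4) were further off. The presence pattern over the 30 lists was shared by 7697 other genes for the 7 genes without H3K27me3, by 649 for MYC, by 840 for MYCL and by 50 for MGA.

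The partners of the network were read in the same way. Promoter H3K27ac was present in all 6 lists at 13 of 13 partners of MGA in PRC1.6, 11 of 11 SIN3 corepressor genes, 20 of 20 coactivators and turnover regulators of MYC, 16 of 17 widely used MYC targets (some of them named by the study, and so no independent choice) and 1 of 3 genes in the group of MYCN, MLXIP and MLXIPL. H3K27me3 in all 6 lists was found at 0 of 13, 0 of 11, 1 of 20, 2 of 17 and 1 of 3. Over all protein-coding genes the shares were 64.2% for H3K27ac and 20.1% for H3K27me3. Over the rank, width and coverage tests of the 5 marks, 1 gene of these lists passed, HDAC2, a histone deacetylase of SIN3 and PRC1.6 complexes. It was called in H3K27ac coverage and was the only call over the lists of 13, 11, 20, 17 and 3 genes. Its list was singled out by the call, so 1 of 13 is not a rate of that list. Over all 19970 genes, H3K27ac coverage was called higher in 12 and lower in 87. H3K27ac in HDAC2 and 100 kb either side covered 21.99, 19.0 and 20.2 kb in DMSO and 12.3, 10.9 and 11.1 kb in doxycycline. The difference was -0.78 ± 0.074 (limma, adjusted p = 0.0433). The call rested on the setting, as it was lost in 10 of 13 alternatives, among them each of the 6 that leave out a library and the one with the replicate number as a term (adjusted p = 0.0613). The adjusted p ran from 0.0313 to 0.401 and the difference from -0.94 to -0.62. The median H3K27ac difference of the PRC1.6 list was -0.046 and that of the SIN3 list -0.03, beside -0.022 for all genes.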

How the data were processed

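The 30 peak lists of 5 marks in KELLY cells (3 libraries per mark and treatment, from the labels) were analysed. The labels also name 4 inputs, which entered only through the peak calls. The labels and headers describe single-end reads and the methods paired-end ones. The authors aligned the reads to hg38 with Bowtie2, removed poorly mapped reads and called peaks for each library with MACS2 2.1.1.20160309 against an input. Per the file headers, broad calling (q 0.05, weaker stretches linked at q 0.1) was used in 18 lists, those of H3K4me1, H3K27ac and H3K27me3, and narrow calling (p 1e-05) in the 12 of H3K4me2 and H3K4me3. The methods instead state a q for every mark. Within a treatment, the headers give equal input totals for replicates 1 and 3. Fold enrichment, as deposited, is a ratio of ChIP to local input, and the deposited pileup is a signal that was not compared. Of the deposited −log10 values, the q-value served to filter lists and the p-value to cut them to equal length. These values depend on depth.

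Promoters were 1 kb either side of all GENCODE 44 start sites of protein-coding genes on chromosomes 1 to 22 and X. limma 3.58.1 in R 4.3.3 was fitted for each mark on its own over all genes: on inverse-normal scores of the fold-enrichment rank and on log2 width over genes marked in all 6 lists, and on log2(covered kb + 1). p-values were adjusted by Benjamini-Hochberg, and a value after ± is an SE. Errors of single libraries are given as the values themselves. Replicate numbers are in the labels, which do not tie them to a batch. The departures from the group mean of libraries with the same number correlated above 0.1 in each of the 3 pairs in 9 of 15 combinations of mark and measure, including H3K27ac rank and coverage, so fits with the replicate number as a block are given where they change a call. Python 3.11.15, numpy 2.4.6 and scipy 1.17.1 were used, and interval functions were checked against bedtools 2.31.1. The limma step for H3K27ac rank was tested on simulated data with independent noise. Among 12827 genes, 200 genes shifted by 1 unit of score were recovered in 0% and by 2 units in 93% of cases. In the data that test called 53 genes higher and 56 lower. The simulation therefore does not set the smallest shift that could be called, and the other marks and measures were not simulated.

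The genes, partner lists and markers were chosen with earlier results of these data known, and further markers are not reported here. The genes named are the 10 members, the 1 nearest gene of each, regions separating the treatments, and listed partners called in a test. Alternatives were other thresholds, windows, scalings, left-out libraries and the replicate block. A filter at q 1e-10 was chosen after seeing the data, since the lowest −log10 q-value of the narrow lists was 3.09.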

Additional observations from a re-analysis of the deposited data

How the results depend on the processing

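The count of network genes called was 0 in all 13 alternatives for presence, in all 11 for width and in all 13 for covered length, and in 11 of 12 for rank. Leaving out each library in turn gave 0 to 1 calls for rank, the 1 being MGA in H3K27ac without doxycycline replicate 2. The replicate block gave 0 calls for rank, width and covered length, while over all genes the calls fell from 109 to 48, 16 to 0 and 99 to 0. Of the 9 single differences with an unadjusted p under 0.05, signs turned in 3. The MXD3 H3K27ac rank difference of -0.50 became 0.056 on log2 fold enrichment. With peaks of q 1e-10 or less, chosen after seeing the data, the H3K27ac covered length differences of MAX and MYCL became 0.060 and 0.45, with adjusted p of 1 in both. The cause of the turns was not tested. The adjusted p over the alternatives ran from 0.119 to 1 for MAX coverage, from 0.0420 to 0.537 for MGA rank, from 0.0715 to 1 for MYCL coverage and from 0.0877 to 1 for MXI1 coverage. HDAC2 kept its direction in 13 of 13 alternatives and its call in 3. Over all genes, centring the H3K27ac covered lengths on their median moved that median from -0.022 to 0.14 and the calls from 12 higher and 87 lower to 254 and 496, and log2 fold enrichment in place of rank moved them from 53 and 56 to 6 and 0. At the q of 1e-10 H3K4me1 and H3K27me3 left too few genes for the rank and width tests, which were not run for them. With 3 libraries a group and calling depth tied to treatment, weak peaks could not be compared free of depth.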
